A study of Mus musculus with 24 samples.

Results

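Osteoblasts make the secreted and membrane-bound signals that decide how many osteoclasts form beside them, and 8 genes for such signals were followed here through osteoblast differentiation in culture. They were chosen by symbol: every row of the deposited count table whose Ensembl identifier belongs to Tnfsf11, Tnfrsf11b, Csf1, Il34, Il6, Il11, Lif or Ptgs2 was taken, which gave 8 of 54232 rows, 1 for each symbol. The ratio of Tnfsf11 to Tnfrsf11b reads was added as a further readout. All 8 genes passed the filter on low counts, and Il6 passed only through 3 day 0 libraries that reached the filter's CPM limit, which is set by a minimum of 10 reads.

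RANKL, the product of Tnfsf11, binds its receptor RANK on cells of the monocyte and macrophage lineage and drives them to become osteoclasts, and osteoprotegerin, the product of Tnfrsf11b, is a soluble decoy that binds RANKL and keeps it from RANK. CSF-1 and interleukin-34 are ligands of the same receptor, CSF1R, which keeps osteoclast precursors alive and dividing. Interleukin-6, interleukin-11 and LIF signal through receptors that share the gp130 subunit, and these cytokines, like the prostaglandins made by the cyclooxygenase that Ptgs2 encodes, are known in bone mostly for acting back on osteoblasts and raising their Tnfsf11 expression.

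The libraries are bulk poly(A) RNA-seq of osteoblast cultures, each started from the pooled skull caps (calvariae) of newborn mice. HBM (high bone mass) cultures were compared with WT cultures. The labels name the genotype only by those letters, and no source used here states the mutation or the strain. Each genotype was sampled at days 0, 10, 15 and 21 of osteoblast differentiation in batches 18, 19 and 21, which makes 8 groups of 3 libraries: HBM day 0, HBM day 10, HBM day 15 and HBM day 21, then WT day 0, WT day 10, WT day 15 and WT day 21. Each group's replicates are independent pools of newborns, so a value stands for a mixed litter pool and not for 1 animal. The series title places the study in procollagen C-propeptide processing and bone matrix, and the comparisons here are HBM against WT on each day and later against earlier days within each genotype.

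The libraries held 28039095 to 46987734 assigned reads. The summed level of 7 osteoblast markers (Runx2, Sp7, Alpl, Bglap, Ibsp, Col1a1, Col1a2) was 41100 to 213100 CPM (reads of a gene scaled to library size, so that libraries can be compared) on days 10 to 21 and 30480 to 57900 CPM on day 0. Other cell types were also present: the sum of 11 macrophage markers was 1678 to 11970 CPM on days 10 to 21 and 44.0 to 1371 CPM on day 0, and that of 7 adipocyte markers was 234 to 772 CPM against 20 to 49.8 CPM. The 5 endothelial markers summed to at most 7.77 CPM in any library. Both batch 19 libraries of day 0 stood apart in the cartilage collagen gene Col2a1, with 8774 CPM in HBM and 15860 CPM in WT, against 755 to 3790 CPM in the other 4 day 0 libraries. Xist was at 0 to 0.0328 CPM in all batch 21 libraries, and in batch 19 it was 177 to 246 CPM in HBM and 18.1 to 41.7 CPM in WT. Xist is transcribed from the inactive X chromosome of female cells, so by Xist the pools differed in sex makeup between batches. In batch 19 Xist also differed between genotypes. The Y chromosome gene Ddx3y overlapped between genotypes in that batch, at 33.5 to 48.1 CPM in HBM and 22.2 to 62.8 CPM in WT.

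The 8 genes covered a wide range of levels. On the scale of CPM per kilobase of exon, which allows levels to be set side by side between genes, Csf1 had the highest median level, at 76.9 on days 10 to 21 (18 libraries) and 130.3 on day 0 (6 libraries). Tnfrsf11b followed with a median level of 25.5 on days 10 to 21 and 36.5 on day 0. Il34 had 24.4 on days 10 to 21, close to Tnfrsf11b, and 9.47 on day 0. Ptgs2 had a median of 0.930 on days 10 to 21 and 13.5 on day 0, when it lay above Il34.

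The signals that act through gp130 and RANKL itself were low on the same per-kilobase scale. Lif had a median of 0.777 on days 10 to 21 and 3.95 on day 0, and Tnfsf11 had 0.970 on days 10 to 21 and 0.973 on day 0. Il11 had 0.315 on days 10 to 21 and 0.676 on day 0. Il6 was lowest, at 0.0217 on days 10 to 21 and 0.110 on day 0. In the later libraries Tnfsf11, at 0.261 to 2.06, Ptgs2, at 0.323 to 2.34, and Lif, at 0.330 to 1.90, covered nearly the same range of levels and have no clear order, and neither have Il34 and Tnfrsf11b. Il6 had 100 reads in all 24 libraries together and was at 0 in 5 of them, while Csf1 had between 10081 and 34015 reads per library.

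**Figure D1:**
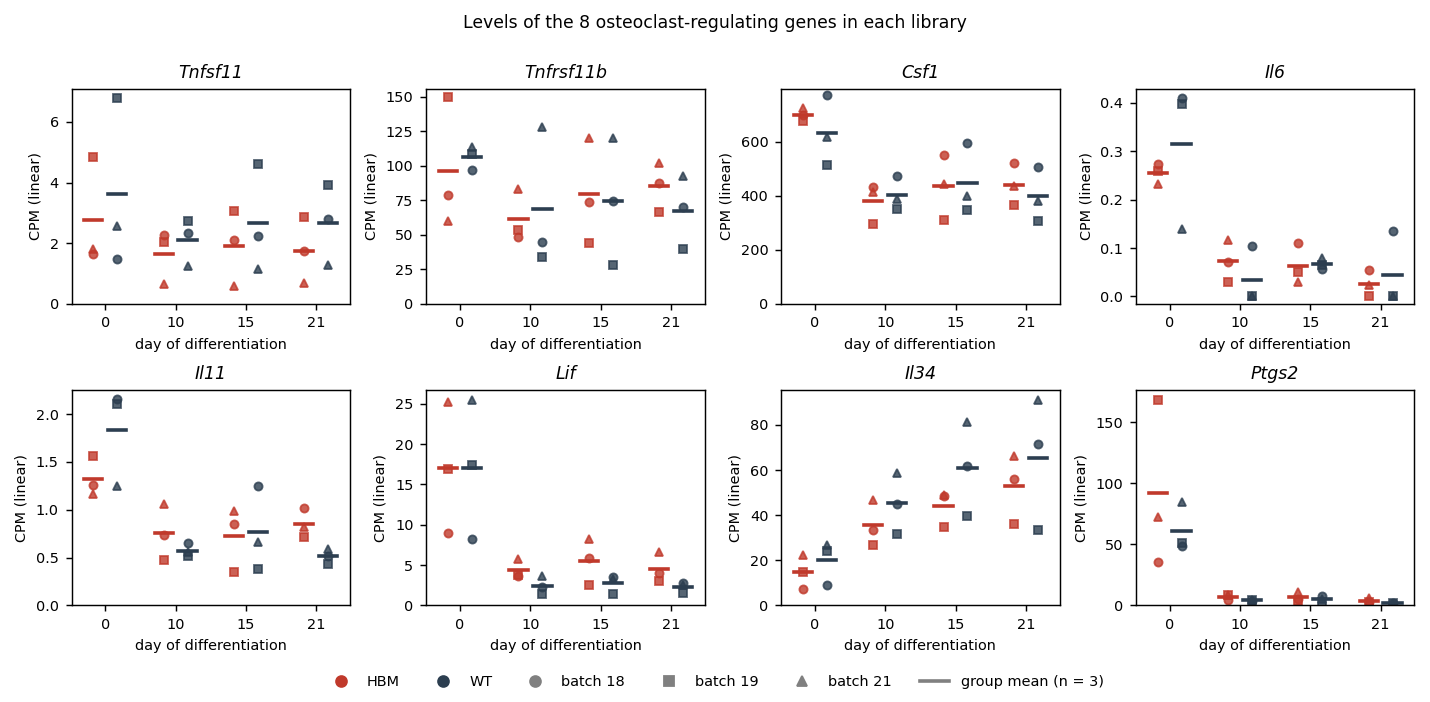
Level of each of the 8 genes (CPM) in every library by day of differentiation, with HBM drawn to the left of WT, 1 mark per library and a marker shape for each batch. Ptgs2, Lif, Il11 and Il6 are high on day 0 and low from day 10 on, Csf1 is moderately lower, Il34 is higher, and for Tnfsf11 and Tnfrsf11b the batches differ more than the days.

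Between day 0 and day 10 Ptgs2 and Lif fell in both genotypes. In HBM cultures 4 of the 8 passed the test, Ptgs2, Lif and Csf1 lower and Il34 higher on day 10, while over all 16592 genes tested 26.5% passed. In WT cultures 4 of the 8 passed, all lower on day 10: Ptgs2, Lif, Il11 and Il6, with a background of 26.2%. The Il6 call is given as a description only, because that gene entered the test through day 0 libraries alone, the group where it is high, and 3 of the other 7 passed in WT. The test was edgeR's quasi-likelihood test with Benjamini-Hochberg adjustment over all genes at 0.05. The median log2 change of the 8 was -0.84 in HBM and -1.23 in WT, against -0.0019 and -0.015 over all genes tested, and these medians include Il6.

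The direction was shared by the cultures. All but Tnfsf11 and Tnfrsf11b, 6 of the 8, had day 10 libraries wholly above or wholly below the day 0 libraries in both genotypes, where 38.5% of all genes did so in HBM and 33.6% in WT. Il6 is 1 of these 6, and by the filter it had to be high on day 0. The same 6 moved the same way in each of the 6 cultures followed by batch number. For comparison, 20.2% of all genes were higher and 18.4% lower on day 10 in all 6 cultures. These are whole-culture RNA levels, in which fewer cells of a type and less RNA per cell cannot be told apart.

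**Figure D2:**
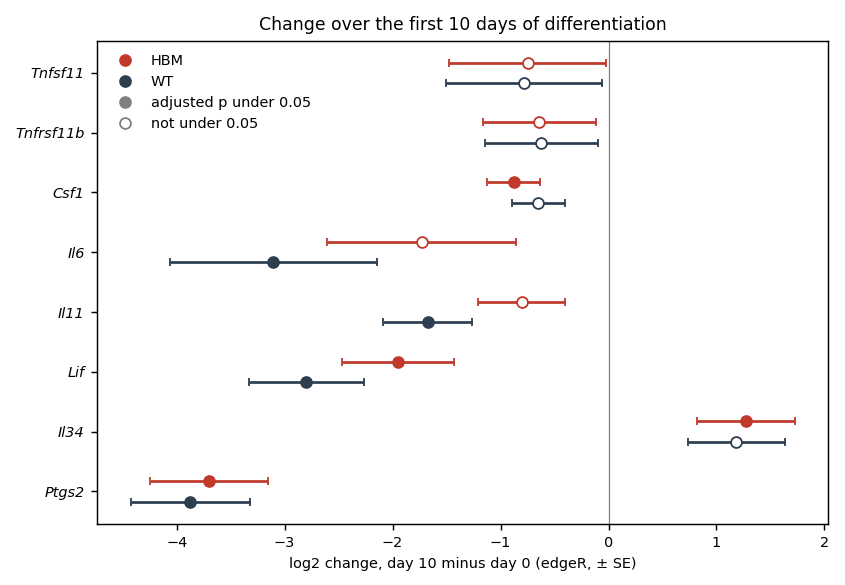
Day 10 minus day 0 log2 fold change of each gene from edgeR's quasi-likelihood fit, with HBM drawn above WT, bars of 1 standard error and filled marks where the adjusted p is under 0.05. Ptgs2 lies farthest from 0 in HBM, at -3.70, and in WT, at -3.87, while Il34 is the only gene to the right of 0. The filled WT mark of Il6 is a description, since its day 0 libraries alone brought it through the filter.

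Ptgs2, Lif, Il11 and Csf1, which were lower on day 10 in at least 1 genotype by the test, and Il6 have promoters in the RefSeq table (GRCm38.p6), and these are shown because inducible cytokine and cyclooxygenase genes are textbook targets of AP-1, C/EBP, CREB and NF-kB. Each line gives the 250 bases before the annotated start of transcription, 5′ to 3′ on the gene's own strand. Capitals mark matches, on either strand, to AP-1 (TGANTCA), the core of the CRE (TGACG), C/EBP (TTNNNCAA) or NF-kB (GGG, any 2 bases, then TTTCC), and no printed match overlaps another.
Ptgs2 (chr1:150099781-150100030, plus strand): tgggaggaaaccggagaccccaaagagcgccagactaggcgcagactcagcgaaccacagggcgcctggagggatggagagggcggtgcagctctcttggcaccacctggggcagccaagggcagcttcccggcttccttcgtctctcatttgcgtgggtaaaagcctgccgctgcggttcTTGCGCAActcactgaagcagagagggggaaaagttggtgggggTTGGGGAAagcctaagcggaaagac
Lif (chr11:4257318-4257567, plus strand): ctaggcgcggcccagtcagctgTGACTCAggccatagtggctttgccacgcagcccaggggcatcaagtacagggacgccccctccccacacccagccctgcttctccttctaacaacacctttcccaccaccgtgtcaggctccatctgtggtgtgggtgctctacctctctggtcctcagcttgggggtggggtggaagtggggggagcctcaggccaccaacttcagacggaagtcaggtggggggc
Il11 (chr7:4778142-4778391, minus strand): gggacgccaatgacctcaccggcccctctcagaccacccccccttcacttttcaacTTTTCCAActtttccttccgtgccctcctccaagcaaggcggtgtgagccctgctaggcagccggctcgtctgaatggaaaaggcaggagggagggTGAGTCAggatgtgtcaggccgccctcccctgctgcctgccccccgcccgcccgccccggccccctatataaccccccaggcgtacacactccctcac
Il6 (chr5:30012864-30013113, plus strand): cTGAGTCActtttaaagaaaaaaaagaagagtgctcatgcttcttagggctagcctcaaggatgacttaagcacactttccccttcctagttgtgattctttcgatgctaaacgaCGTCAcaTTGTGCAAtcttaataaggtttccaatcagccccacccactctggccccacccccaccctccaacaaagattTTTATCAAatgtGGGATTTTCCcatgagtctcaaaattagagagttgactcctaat
Csf1 (chr3:107760470-107760719, minus strand): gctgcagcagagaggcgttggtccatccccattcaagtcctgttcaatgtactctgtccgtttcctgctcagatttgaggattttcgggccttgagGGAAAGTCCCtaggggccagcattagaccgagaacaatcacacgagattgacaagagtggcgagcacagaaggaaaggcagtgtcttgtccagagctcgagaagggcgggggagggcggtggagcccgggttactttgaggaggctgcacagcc

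In windows that also take in 50 bases after the start, AP-1 letters were found in 7.81% of all 32851 RefSeq promoters, the CRE core in 20.8%, C/EBP letters in 36.7% and NF-kB letters in 1.63%. The Ptgs2 promoter held C/EBP letters at -69 and -25, counted from the start of transcription to the first base of the match, and a CRE core at 14 bases after the start, outside the printed stretch. Lif held AP-1 letters at -228, and the Il11 promoter shown held AP-1 letters at -98 and C/EBP letters at -194.

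Il6 was the only gene with all 4 motifs. Its AP-1 letters lay at -249, the CRE core at -135, C/EBP letters at -128 and -56, and NF-kB letters at -44. Csf1 held NF-kB letters at -154 and no other motif. A second annotated Il11 start and the Tnfsf11 promoter held none of the letters, which says nothing about the factors themselves. The table covered 6 of the 8 genes, and Tnfrsf11b and Il34 are named only.

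Tnfsf11 (ENSMUSG00000022015, mm10 chr14:78277445-78308043, minus strand), the gene for RANKL, showed no change with time that passed the test. In batches 18, 19 and 21 it had 2.26, 2.03 and 0.658 CPM in HBM day 10 libraries, against 1.64, 4.86 and 1.79 CPM in HBM day 0 libraries. In WT it had 2.33, 2.72 and 1.25 CPM on day 10, against 1.48, 6.79 and 2.56 CPM on day 0. The days overlapped in both genotypes, and the cultures disagreed in direction: both batch 18 cultures were higher on day 10, and the other 4 were lower.

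The log2 change of Tnfsf11 was -0.75 ± 0.73 (SE) in HBM and -0.78 ± 0.72 in WT, with adjusted p = 0.474 and 0.447 by edgeR's quasi-likelihood test. Without the day 0 library of batch 19, 1 of those with high Col2a1, the log2 change was -0.06 in HBM and 0.06 in WT. These fits kept the day 10 library of that batch. Within cultures, Tnfsf11 changed by log2 -1.24 in HBM and -1.31 in WT in batch 19, and by -1.38 and -1.01 in batch 21. In batch 18 it changed by 0.45 and 0.64. The gene stayed at a low level afterwards, with 2.11, 3.06 and 0.583 CPM in HBM and 2.23, 4.60 and 1.14 CPM in WT on day 15, and 1.73, 2.85 and 0.679 CPM in HBM and 2.80, 3.93 and 1.28 CPM in WT on day 21.

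Tnfrsf11b (ENSMUSG00000063727, mm10 chr15:54250619-54278484, minus strand), the gene for osteoprotegerin, had many more reads than Tnfsf11 in every library and also showed no change that passed. Its levels in batches 18, 19 and 21 were 48.5, 53.3 and 82.9 CPM in HBM on day 10, against 78.7, 149.9 and 59.9 CPM on day 0. WT libraries had 44.9, 34.0 and 128.0 CPM on day 10, against 97.2, 108.2 and 113.4 CPM on day 0. Here batch 21 was the exception, since both of its cultures were higher on day 10 and the other 4 were lower.

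The log2 change of Tnfrsf11b was -0.64 ± 0.52 (SE, adjusted p = 0.386) in HBM and -0.62 ± 0.52 (adjusted p = 0.397) in WT by edgeR's quasi-likelihood test. On day 15 the levels were 73.7, 44.2 and 120.4 CPM in HBM and 74.8, 28.1 and 119.8 CPM in WT. On day 21 they were 87.7, 66.4 and 102.0 CPM in HBM and 70.1, 39.5 and 92.4 CPM in WT. From day 10 on, batch 19 was lowest in WT on each day, and batch 21 was highest in all 6 groups.

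The ratio of the 2 transcripts was lowest in batch 21 in both genotypes from day 10 on, while on day 0 batch 21 lay between the other batches. Per 100 Tnfrsf11b reads, in batches 18, 19 and 21, there were 2.10, 3.25 and 3.02 Tnfsf11 reads in HBM and 1.53, 6.29 and 2.27 in WT on day 0. On day 10 there were 4.69, 3.83 and 0.808 in HBM and 5.22, 8.02 and 0.984 in WT. On day 15 the ratio was 2.88, 6.95 and 0.496 in HBM and 3.00, 16.4 and 0.960 in WT. On days 10 to 21 batch 21 lay at 0.496 to 1.40 reads per 100 and did not overlap batch 18, at 1.99 to 5.22, or batch 19, at 3.83 to 16.4.

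Batch 21 had the lowest Tnfsf11 of the 3 batches in all 6 groups of days 10 to 21, as 11.9% of all genes tested did, and the highest Tnfrsf11b in all 6, as 12.2% did. The macrophage marker sum was also highest in that batch on these days, at 8530 to 11970 CPM in HBM and 9233 to 10190 CPM in WT, against 1678 to 6947 CPM in the other batches. The osteoblast marker sum was lowest in it within each genotype, at 72540 to 101100 CPM in HBM, against 129700 to 213100 CPM in the other HBM libraries, and at 41100 to 52650 CPM in WT, against 81260 to 112400 CPM. The part of cell makeup, or of the near absence of Xist in that batch, in the ratio was not tested.

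With time the ratio went in opposite directions in different batches. From day 0 to day 10 the log2 ratio was higher by 1.16 in HBM and 1.77 in WT in batch 18, and by 0.24 and 0.35 in batch 19. In batch 21 it was lower by the differences -1.90 in HBM and -1.21 in WT. The mean over the 6 cultures was 0.07 ± 1.39 (SD, n = 6), and an exact two-sided sign-flip permutation test gave p = 0.875. From day 10 to day 21 the mean log2 difference was -0.14 ± 0.63 (SD, n = 6; exact permutation p = 0.6875). The smallest p that this exact permutation test can reach with 6 cultures is 0.03125. Over the 7 permutation tests of the ratio the adjusted p-values were 0.98 to 1.

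**Figure D3:**
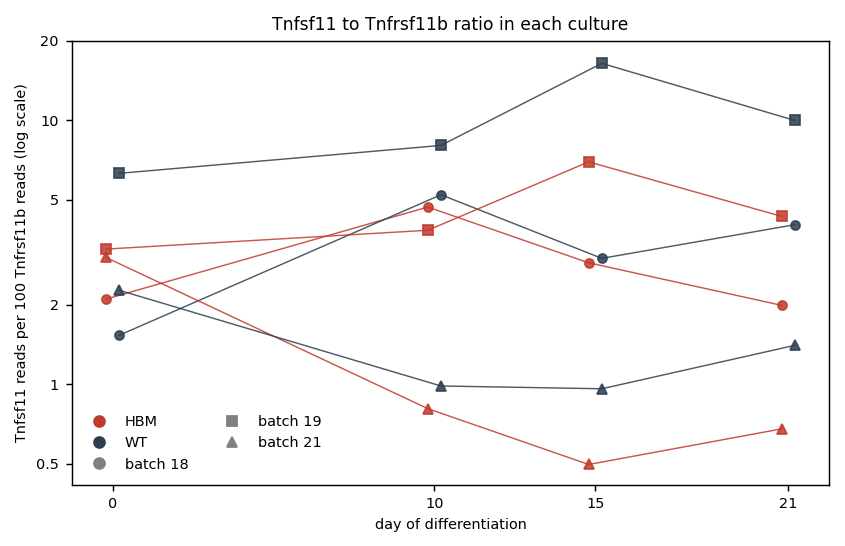
Tnfsf11 reads per 100 Tnfrsf11b reads (log axis) against day of differentiation, to scale, in 1 line per culture, with HBM and WT told apart. From day 10 on, the batch 21 lines lie at 0.496 to 1.40, the batch 18 lines at 1.99 to 5.22 and the batch 19 lines at 3.83 to 16.4.

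Set against WT of the same batch and day, the ratio was lower in HBM in 10 of 12 pairs, and the exceptions were batches 18 and 21 on day 0. On day 21 it was 1.99, 4.32 and 0.677 per 100 in HBM and 4.02, 9.97 and 1.40 per 100 in WT. Each HBM culture lay below its WT partner, while the groups overlapped because the batches lay far apart. The mean log2 difference was -1.09 on day 21 (exact two-sided permutation test of unpaired groups, n = 3 each, p = 0.5, smallest possible 0.1). The 3 pairs differed by -1.02, -1.21 and -1.05, a mean of -1.09 ± 0.10 (SD, n = 3), for which an exact sign-flip permutation test gives p = 0.25, the smallest that 3 pairs allow. On day 0, day 10 and day 15 the differences were -0.03, -0.50 and -0.75, with exact permutation p of 1, 0.5 and 0.7.

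Over the mean of the 4 days the log2 ratio differed by -0.59 between HBM and WT (exact permutation p = 0.6). By batch this was -0.19 in batch 18, -1.12 in batch 19 and -0.47 in batch 21. Leaving out 1 culture at a time gave -1.28 to 0.15. No difference in the ratio between the genotypes passed a test in this design.

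Tnfsf11 alone was lower in HBM than in WT in 9 of 9 same-batch pairs of days 10 to 21, where 6.73% of all genes were, with log2 differences of -0.90 to -0.04, and in 11 of 12 pairs over all days, where 6.21% of genes were lower in at least 11. The fitted differences between HBM and WT were -0.35 ± 0.73 on day 10, -0.47 ± 0.72 on day 15 and -0.61 ± 0.73 on day 21 (SE), each with adjusted p = 1 by edgeR's quasi-likelihood test. With a batch term for each day the largest was -0.66 ± 0.22 on day 21 (adjusted p = 0.201). Tnfrsf11b differed by 0.34 ± 0.52 on day 21 (adjusted p = 1) and by -0.16 ± 0.52 on day 10.

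Csf1 (ENSMUSG00000014599, mm10 chr3:107741048-107760469, minus strand), the gene for the survival factor of osteoclast precursors, was lower on day 10 in every culture. In batches 18, 19 and 21 it had 434, 296 and 412 CPM in HBM on day 10, against 699, 678 and 725 CPM on day 0. In WT it had 472, 351 and 387 CPM on day 10, against 773, 512 and 617 CPM on day 0. The days did not overlap in either genotype, and batch 19 was the lowest on day 10 in both.

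In HBM the log2 change of Csf1 was -0.88 ± 0.25 (SE), 1.84-fold lower on day 10, with adjusted p = 0.0141 by edgeR's quasi-likelihood test. Leaving out batch 19 of HBM day 10 gave an adjusted p of 0.077. In WT it was -0.65 ± 0.25 (adjusted p = 0.0569), and it passed at -0.64 ± 0.12 (adjusted p = 0.000823) when each culture had its own term in the model, and with DESeq2 (adjusted p = 0.0428). With these culture terms 6 of the 8 genes passed in WT, Il6 among them, where 38.5% of all genes did, and 4 of the 8 in HBM, where 38.2% did. Leaving out 1 WT library at a time gave log2 changes of -0.78 to -0.48 and an adjusted p of 0.0401 without the day 0 library of batch 19, 1 of those with high Col2a1, and of 0.0625 to 0.205 without any other.

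After day 10 Csf1 levelled out. It had 551, 309 and 444 CPM in HBM and 594, 347 and 401 CPM in WT on day 15, and 521, 364 and 436 CPM in HBM and 506, 305 and 382 CPM in WT on day 21. HBM and WT overlapped on each of the 4 days, with log2 differences between -0.08 and 0.15 and a standard error of 0.24.

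Il34 (ENSMUSG00000031750, mm10 chr8:110741829-110805924, minus strand), the gene for the second ligand of CSF1R, was the only one of the 8 that was higher on day 10. Its levels in batches 18, 19 and 21 were 33.6, 26.7 and 46.8 CPM in HBM on day 10, against 7.34, 14.7 and 22.4 CPM on day 0. WT libraries had 45.0, 31.8 and 58.9 CPM on day 10, against 8.88, 24.1 and 26.8 CPM on day 0. Every day 10 library lay above every day 0 library of its genotype, and batch 18, with the lowest day 0 level, showed the steepest increase.

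In HBM Il34 was 2.41-fold higher on day 10, a log2 change of 1.27 ± 0.45 (SE, adjusted p = 0.0445 by edgeR's quasi-likelihood test). The call was narrow: leaving out 1 library took the adjusted p to 0.175 (HBM day 0 batch 18), 0.105 (day 0 batch 19), 0.0776 (day 10 batch 18) or 0.143 (day 10 batch 21). In WT the log2 change was 1.18 ± 0.45 (adjusted p = 0.0589), and it passed with culture terms (1.15 ± 0.36, adjusted p = 0.0222) and with DESeq2 (adjusted p = 0.0298). Leaving out 1 WT library at a time gave log2 changes of 0.83 to 1.46 and an adjusted p of 0.0394 without the day 0 library of batch 21 and of 0.0593 to 0.205 without any other.

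Il34 went on to 48.7, 34.6 and 49.2 CPM in HBM and 61.8, 39.6 and 81.5 CPM in WT on day 15, and to 56.1, 36.1 and 66.2 CPM in HBM and 71.7, 33.4 and 91.2 CPM in WT on day 21. It was higher on day 21 than on day 10 in 6 of 6 cultures, as 10.8% of all genes were, with log2 changes of 0.56 ± 0.44 in HBM and 0.53 ± 0.44 in WT that did not pass (adjusted p = 1 and 0.999, edgeR). The macrophage, adipocyte and osteoblast marker sums were also higher on days 10 to 21 than on day 0 by the values above, and their part in the Il34 and Csf1 levels was not tested. Il34 exons overlap those of Gm15894 by 22 bases and Gm15895 by 75 bases on the opposite strand. No source used here states the strand setting of the counting, and these genes had at most 1 and 0.341 CPM.

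Set against WT, Il34 was lower in HBM in 11 of 12 same-batch pairs, where 6.21% of all genes were lower in at least 11. The exception was batch 19 on day 21. The log2 differences were -0.43 ± 0.45 on day 0, -0.34 ± 0.44 on day 10, -0.47 ± 0.44 on day 15 and -0.31 ± 0.44 on day 21 (SE), none of which passed edgeR's quasi-likelihood test (adjusted p 0.93 to 1). With the 4 days of a culture summed and batch as a block the difference was -0.31 ± 0.06 (adjusted p = 0.0968).

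Il6 (ENSMUSG00000025746, mm10 chr5:30013114-30019981, plus strand), the gene for interleukin-6, was close to the detection limit after day 0. In batches 18, 19 and 21 it had 3, 1 and 5 reads in HBM on day 10, against 10, 10 and 7 reads on day 0. In WT it had 4, 0 and 0 reads on day 10, against 18, 14 and 5 reads on day 0. In both genotypes the day 10 counts were below every day 0 count, and in WT all day 10 reads came from batch 18.

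In WT the fitted log2 change of Il6 was -3.10 ± 0.96 (SE, adjusted p = 0.0233, edgeR's quasi-likelihood test). It rests on 4 reads on day 10 and on a gene that the filter kept only for its day 0 level, so it describes these libraries and does not stand as a test of a fall. Leaving out 1 of 4 WT libraries took the adjusted p to 0.0504 to 0.0925, and without the WT day 10 library of batch 18 the fitted log2 change was -6.59. In HBM it was -1.73 ± 0.87 (adjusted p = 0.152). On day 15 there were 4, 2 and 1 reads in HBM and 2, 3 and 3 reads in WT, and on day 21 there were 2, 0 and 1 reads in HBM and 5, 0 and 0 reads in WT, too few to set the genotypes apart.

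Il11 (ENSMUSG00000004371, mm10 chr7:4772373-4782859, minus strand), the gene for interleukin-11, was low throughout and lower on day 10. Its levels in batches 18, 19 and 21 were 0.738, 0.470 and 1.06 CPM in HBM on day 10, against 1.26, 1.56 and 1.16 CPM on day 0. WT libraries had 0.648, 0.514 and 0.560 CPM on day 10, against 2.16, 2.10 and 1.25 CPM on day 0. No day 10 library reached a day 0 library, and the gap was narrow in batch 21 of HBM.

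The log2 change of Il11 was -0.80 ± 0.40 (SE, adjusted p = 0.15) in HBM and -1.68 ± 0.41 (3.19-fold lower, adjusted p = 0.0063) in WT by edgeR's quasi-likelihood test. Fitted on the WT libraries of the 2 days alone, the WT change had adjusted p = 0.0609. A gene that passed in WT and not in HBM is not thereby shown to differ between them: across the 4 days no gene had a genotype difference that changed with day by the main test, at a raw p under 0.05 for 103 genes, and for Il11 that test gave a raw p of 0.21.

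On day 15 Il11 had 0.849, 0.351 and 0.991 CPM in HBM and 1.25, 0.385 and 0.661 CPM in WT. On day 21 it had 1.02, 0.713 and 0.815 CPM in HBM and 0.517, 0.436 and 0.591 CPM in WT. On day 21 all HBM libraries were above all WT libraries, and 9.38% of all genes did not overlap, in either direction. The log2 difference of 0.72 ± 0.42 did not pass (SE, adjusted p = 1, edgeR). Il11 was the gene with the fewest reads after Il6, 14 to 95 per library.

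Lif (ENSMUSG00000034394, mm10 chr11:4257557-4272514, plus strand), the gene for leukaemia inhibitory factor, was strongly lower on day 10. In batches 18, 19 and 21 it had 3.69, 3.79 and 5.73 CPM in HBM on day 10, against 9.04, 16.9 and 25.2 CPM on day 0. In WT it had 2.25, 1.47 and 3.61 CPM on day 10, against 8.25, 17.5 and 25.5 CPM on day 0. The days were well apart in both genotypes, and on day 0 the 2 genotypes had nearly the same level in each batch.

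The log2 change of Lif was -1.95 ± 0.52 (SE), 3.86-fold lower on day 10, in HBM and -2.80 ± 0.53, 6.97-fold lower, in WT, with adjusted p = 0.00998 and 0.00114 by edgeR's quasi-likelihood test. Both calls held without any 1 of the libraries compared. On day 15 Lif had 5.84, 2.56 and 8.27 CPM in HBM and 3.54, 1.44 and 3.23 CPM in WT. On day 21 it had 4.01, 3.05 and 6.65 CPM in HBM and 2.78, 1.48 and 2.50 CPM in WT.

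Lif and Tnfsf11 were the 2 genes of the 8 whose genotype difference had 1 direction in every same-batch pair after day 0. Lif was higher in HBM than in WT in 9 of 9 same-batch pairs of days 10 to 21, where 6.16% of all genes tested were, by log2 0.52 to 1.40, and in 1 of 3 pairs on day 0. The groups did not overlap on day 10 and day 21, as for 11.7% and 9.38% of all genes. The fitted differences were 0.85 ± 0.51 on day 10, 1.02 ± 0.51 on day 15 and 1.02 ± 0.51 on day 21 (SE), each with adjusted p = 1 by edgeR's quasi-likelihood test. On day 0 it was -0.0011 ± 0.49.

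With a batch term for each day, Lif was the only one of the 8 that passed between genotypes on any day: the day 10 difference was 0.89 ± 0.19 (SE, adjusted p = 0.0423, edgeR), where 1.31% of all genes passed. On day 15 it was 0.98 ± 0.19 (adjusted p = 0.0576) and on day 21 0.99 ± 0.19 (adjusted p = 0.0598). The day 10 call was lost without batch 18, 19 or 21 (adjusted p = 0.141, 0.329 and 0.139). With 1 batch term for all days, which was added after seeing the data, the difference was 0.90 ± 0.37 (adjusted p = 0.589) and no gene passed on any day.

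The reads of days 10, 15 and 21 of each culture were also summed, a comparison added after seeing the data. Lif was then 1.94-fold higher in HBM with batch as a block, log2 0.96 ± 0.13 (SE, adjusted p = 0.0439, edgeR), where 2.36% of all genes passed. Without the block it was 0.95 ± 0.41 (adjusted p = 0.982). Leaving out batch 18 kept the call (adjusted p = 0.0157), and leaving out batch 19 or 21 ended it (adjusted p = 0.167 and 0.145). With all 4 days summed and the block, it was 1.27-fold higher in HBM, log2 0.35 ± 0.08 (SE, adjusted p = 0.144, edgeR), and did not pass. The osteoblast marker sum was also higher in HBM than in WT in each batch of days 10 to 21, by the ranges given above for batch 21 and at 129700 to 213100 CPM against 81260 to 112400 CPM in batches 18 and 19, and its part in the Lif difference was not tested.

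Ptgs2 (ENSMUSG00000032487, mm10 chr1:150100031-150108227, plus strand), the gene for the inducible cyclooxygenase COX-2, which makes the precursor of prostaglandin E2, fell most of the 8 genes. Its levels in batches 18, 19 and 21 were 4.10, 8.35 and 8.74 CPM in HBM on day 10, against 35.3, 167.8 and 72.4 CPM on day 0. WT libraries had 3.65, 4.43 and 4.45 CPM on day 10, against 48.3, 50.9 and 84.7 CPM on day 0. The lowest day 0 library lay far above the highest day 10 library in both genotypes, and the HBM day 0 library of batch 19 stood above all others.

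Ptgs2 was 13-fold lower on day 10 in HBM, log2 -3.70 ± 0.55 (SE, adjusted p = 0.000163), and 14.7-fold lower in WT, log2 -3.87 ± 0.55 (adjusted p = 0.000129), by edgeR's quasi-likelihood test. With batch 19 of HBM day 0 left out, 1 of the 2 libraries with high Col2a1, the HBM change was -2.93 ± 0.49 (adjusted p = 0.000838). The fall was seen in each of the 6 cultures, at log2 changes of -4.32 to -3.04. On day 15 Ptgs2 had 5.32, 3.51 and 10.7 CPM in HBM and 7.32, 2.91 and 5.08 CPM in WT. On day 21 it had 3.05, 2.68 and 6.20 CPM in HBM and 1.96, 1.69 and 1.48 CPM in WT.

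A second, smaller decline came late. Ptgs2 was lower on day 21 than on day 10 in 6 of 6 cultures, as 10.9% of all genes were, with log2 changes of -0.82 ± 0.51 (SE) in HBM and -1.29 ± 0.53 in WT that did not pass (adjusted p = 1 and 0.999, edgeR). In WT the 2 days did not overlap, as for 13.4% of all genes. Between day 10 and day 21 none of the 8 genes and no gene at all passed edgeR's quasi-likelihood test in either genotype, with 535 genes in HBM and 707 in WT at a raw p under 0.05, while DESeq2 called 3 and 18 genes.

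Between genotypes Ptgs2 was higher in HBM in 8 of 9 same-batch pairs of days 10 to 21, and the exception was batch 18 on day 15. This count is a description: 6.16% of all genes were higher in all 9 pairs, and the share for at least 8 was not counted. On day 21 the groups did not overlap, as for 9.38% of all genes, and the log2 difference was 1.22 ± 0.53 (SE, adjusted p = 1, edgeR). With batch as a block it was 1.14 ± 0.49 (adjusted p = 0.328). On day 0 the log2 difference of 0.58 ± 0.49 rested on batch 19, since HBM was the lower genotype in batches 18 and 21.

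Of the 8 genes none passed between HBM and WT on day 0, 10, 15 or 21 by edgeR's quasi-likelihood test, and neither did any other gene of the 16592 (0.0% called). At a raw p under 0.05 there were 701, 476, 347 and 356 genes on these days, and DESeq2 called 0, 2, 0 and 1 genes, with none of the 8 among them. Groups that did not overlap were found for Lif on day 10, where 11.7% of all genes did not overlap, and for Lif, Il11 and Ptgs2 on day 21, where 9.38% did not. All 4 cases had HBM above WT. The standard errors of the genotype differences ran from 0.24 for Csf1 to 1.22 for Il6, and a p that misses the threshold does not show that the genotypes were alike.

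**Figure D4:**
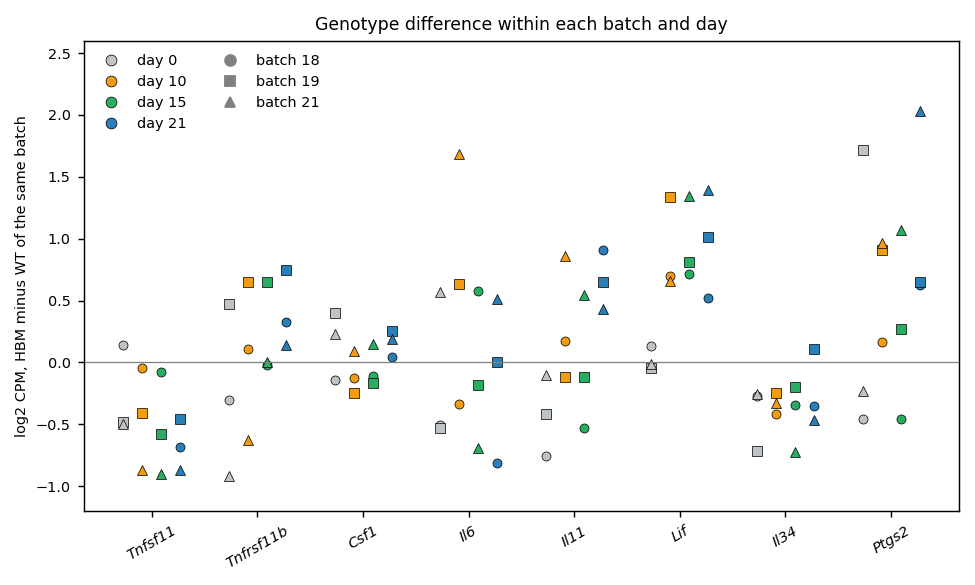
HBM minus WT log2 difference of each gene within each batch, by day, with 1 mark per same-batch pair and a marker shape for each batch. All 9 Lif marks of days 10 to 21 lie above 0, at 0.52 to 1.40, and all 9 Tnfsf11 marks of these days lie below 0, at -0.90 to -0.04.

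The receptors and signal carriers of the gp130 cytokines moved in both directions between day 0 and day 10. Of 12 such genes tested, 4 were higher and 4 lower in HBM and 3 were higher and 6 lower in WT. The median log2 changes were -0.46 and -0.60, while 26.5% of all genes passed in HBM and 26.2% in WT. These counts and medians are descriptions, because Osm, the gene for oncostatin M, is among the 12 and entered the test only through later days. It had at most 0.398 CPM in HBM and 0.417 CPM in WT on day 0. Il6st, which encodes gp130 itself, fell by 1.47 on the log2 scale in HBM (adjusted p = 0.000151) and by 0.92 in WT (adjusted p = 0.00435, edgeR). Stat3, the transcription factor that the receptor activates, fell by 0.60 in HBM (adjusted p = 0.000329) and by 0.54 in WT (adjusted p = 0.000725). The feedback inhibitor gene Socs3 fell by 0.999 in HBM (adjusted p = 0.0118) and by 1.25 in WT (adjusted p = 0.00294).

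Receptor chains of single cytokines went both ways. Il11ra1, the interleukin-11 receptor, was higher by log2 1.56 in HBM (adjusted p = 0.00106) and by 1.32 in WT (adjusted p = 0.00331), and Lifr, the LIF receptor, was higher by 2.09 in HBM (adjusted p = 0.00435) and by 1.63 in WT (adjusted p = 0.0180, edgeR). Osmr, the oncostatin M receptor, fell by 1.61 in HBM (adjusted p = 0.00927) and by 1.19 in WT (adjusted p = 0.0432, edgeR). Between genotypes none of the 12 passed by the main test.

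Among 14 genes of prostaglandin synthesis and response, 3 were higher and 1 lower in HBM on day 10, and 2 were higher and 1 lower in WT, with median log2 changes of 0.50 and 0.27. These 4 of 14 and 3 of 14 are shares near the 26.5% and 26.2% of all genes that passed. The 14 include Ptgds and Ptger3, which entered the test only through later days and did not pass. Pla2g4a, the phospholipase that releases arachidonic acid for the cyclooxygenases, fell by 0.80 in HBM (adjusted p = 0.0106) and by 0.86 in WT (adjusted p = 0.00686, edgeR). Hpgd, the enzyme that inactivates prostaglandins, was higher by 5.47 in HBM (adjusted p = 0.00455) and 4.38 in WT (adjusted p = 0.0124). Ptgs1, the constitutive cyclooxygenase, had log2 changes of -0.27 ± 0.43 in HBM and -0.07 ± 0.43 in WT that did not pass (adjusted p = 0.666 and 0.917).

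Ptger1, a prostaglandin E2 receptor gene, was higher by log2 1.56 in HBM (adjusted p = 0.0111) and by 1.49 in WT (adjusted p = 0.0144, edgeR). Ptgis, the prostacyclin synthase, was higher by 2.19 in HBM (adjusted p = 0.00249). None of the 14 passed between genotypes.

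Of 14 receptors and regulators known to act on Tnfsf11 transcription, 1 was higher and 2 lower in HBM and 2 were higher and 2 lower in WT, with median log2 changes of 0.09 and 0.12. These 3 of 14 and 4 of 14 are again near the 26.5% and 26.2% of all genes. Il1rl1, the interleukin-33 receptor, fell by 3.74 in HBM (adjusted p = 0.000248) and by 3.22 in WT (adjusted p = 0.000684, edgeR). Il1r1, the interleukin-1 receptor, fell by 0.98 in HBM (adjusted p = 0.00249) and by 0.61 in WT (adjusted p = 0.0364). Pth1r, the parathyroid hormone receptor, was higher by 2.48 in HBM (adjusted p = 0.00648).

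In WT the other 2 were Nr3c1, the glucocorticoid receptor, higher by log2 0.68 (adjusted p = 0.0134), and Tlr4, a receptor for bacterial lipopolysaccharide, higher by 0.76 (adjusted p = 0.0272, edgeR).

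Of 22 other osteoblast factors known to act on osteoclasts 18 could be tested, and 6 were higher and 2 lower on day 10 in each genotype, with median log2 changes of 0.84 in HBM and 0.55 in WT, where 26.5% and 26.2% of all genes passed. Cxcl12, a chemokine that attracts osteoclast precursors, was higher by 2.82 in HBM (adjusted p = 0.000192) and by 3.37 in WT (adjusted p = 6.00e-05, edgeR). Tgfb1 was higher by 2.06 in HBM (adjusted p = 5.66e-05) and by 1.48 in WT (adjusted p = 0.000655). Il1a, for interleukin-1 alpha, averaged 0.163 ± 0.166 CPM in HBM and 0.152 ± 0.068 CPM in WT on day 10 (SD, n = 3 each), against 0 reads in every day 0 library. It is 1 of the 6 in each genotype, but it entered the test only through later days and is given as a description. Tnf, also among the 18, entered only through later days too, with 0 CPM in the lowest day 0 library of each genotype. The counts and medians of this list include both genes and are descriptions.

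In HBM Il15, for interleukin-15, was higher by log2 2.69 (adjusted p = 0.0122), and in WT Spp1, for osteopontin, fell by 2.07 (adjusted p = 0.0153, edgeR).

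Between genotypes a few genes of these lists passed only with batch as a block. On day 10, Spp1 and Tgfb1 had log2 differences of 0.97 (adjusted p = 0.0289) and 0.53 (adjusted p = 0.0138, edgeR), in a fit where 1.31% of all genes passed. No gene passed on day 10 in the main fit or with 1 batch term for all days, and 43, 29 and 5 genes passed in the blocked fit without batches 18, 19 and 21.

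In the summed reads of days 10 to 21, where 2.36% of all genes passed with the block, Lifr had a log2 difference between HBM and WT of 0.54 (adjusted p = 0.0345), Pth1r of 0.70 and Il1r1 of -0.34 (adjusted p = 0.0406 each, edgeR). In the same fit the log2 difference was 0.34 for Tgfb1 (adjusted p = 0.0407), -0.76 for Cxcl12 and -0.49 for Efnb2, an ephrin ligand (adjusted p = 0.0448 each). No gene passed without batch 21, 1 gene passed without batch 19 and 806 passed without batch 18. Such fits have fewer pairs, so a lost call does not show that it came from the batch left out. At a raw p under 0.05 by edgeR with the block there were 4062 genes with all batches. Without batches 21, 19 and 18 there were 3350, 2305 and 3698. By edgeR no gene passed without the block, or with all 4 days summed and the block.

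Receptor genes of these signals were measured in the same cultures, and which cells expressed them was not tested. Csf1r, the receptor of CSF-1 and interleukin-34, was at 56.4 to 584 CPM in HBM day 10 libraries, against 2.48 to 99.9 CPM in HBM day 0 libraries, and Tnfrsf11a, the gene for RANK, was at 2.57 to 22.5 CPM, against 0.928 to 6.54 CPM. In WT, Csf1r was at 102.5 to 556 CPM on day 10, against 3.52 to 118 CPM on day 0. Tnfrsf11a was at 4.72 to 18.6 CPM in WT on day 10, against 0.398 to 8.23 CPM on day 0. The HBM log2 changes of Csf1r and Tnfrsf11a, 3.04 ± 1.40 and 2.06 ± 1.11 (SE), did not pass (adjusted p = 0.116 and 0.18, edgeR), the batches being far apart. Of 5 such receptor genes 1 passed in HBM and none in WT, no more than the 26.5% and 26.2% of all genes. It was Ptprz1, for a receptor phosphatase that binds interleukin-34, 10.5-fold higher on day 10 (adjusted p = 0.0296, edgeR). Of 9 osteoclast markers tested 4 were higher on day 10 in each genotype, 3 of them in both, where 26.5% and 26.2% of all genes passed. These counts are descriptions, because Ocstamp and Dcstamp, among the 9, entered the test only through later days. They had at most 0.227 and 0.0519 CPM on day 0. The osteoclast marker sum was 350 to 823 CPM on days 10 to 21, against 206 to 319 CPM on day 0. Most of it was Ctsk, with group means of 362 to 483 CPM on days 10 to 21. On day 0 the Ctsk means were 160 CPM in HBM and 174 CPM in WT. Whether the sum tracks osteoclast number was not tested.

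The 8 genes did not vary as a unit from library to library. After the mean of each of the 8 groups was taken away, the log2 levels of Lif and Il34 correlated at r = 0.88 over 24 libraries, Csf1 and Il11 at 0.72, and Lif and Ptgs2 at 0.68. Tnfsf11 and Tnfrsf11b correlated at -0.57, so libraries with more of the ligand transcript than their group's mean tended to have less of the decoy transcript. Lif and Il34 thus moved together within groups, whereas over all 24 libraries, where the days enter too, their r was -0.47. These points share cultures and batches and are given as descriptions only.

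Genes most like each of the 8 over the 24 libraries were sought among 10998 or 10999 genes with a mean of at least 5 CPM. Pdgfc (r = 0.937), Hbegf and Iffo2 were nearest to Lif. Tnfrsf12a (r = 0.903) was nearest to Il11, with Hbegf also among its 3 nearest, so Hbegf, the gene for a heparin-binding EGF-like growth factor, stood near both. Tjap1 (r = 0.955), Pmpca and Rrn3 were nearest to Ptgs2, and S100a6 (r = 0.903), Nradd and S100a4 to Il6. For Il34 they were 1500009L16Rik (r = 0.964), Calhm5 and Luzp2, and for Csf1 Mcam (r = 0.925), Dcun1d3 and Ece1.

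Likeness was weaker for the RANKL pair. Ptma (r = 0.838), Raly and Fam76a were nearest to Tnfsf11, and Arhgef5 (r = 0.863), Slc1a6 and Serpinb9b to Tnfrsf11b. The nearest genes of the pair had no name in common.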

How the data were processed

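The deposited table holds raw counts of reads per Ensembl gene for 24 libraries. Per the submitters' processing notes the tools were cutadapt 3.4, STAR 2.7.8a and featureCounts of Subread 2.0.1, with mm10; no source used here states the annotation release, strand setting or handling of multi-mapping reads. Symbols, positions and exon lengths came from GENCODE (54078 of 54232 rows matched, 154 not), and promoters from RefSeq.

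From the deposited counts, libraries were scaled by TMM (factors 0.866 to 1.11), and filterByExpr at a minimum count of 10 left 16592 genes. CPM use the TMM-scaled library sizes. edgeR 4.0.16 (R 4.3.3) quasi-likelihood tests used 1 model of the 8 groups over all 24 libraries, with Benjamini-Hochberg adjustment over all genes tested and a threshold of 0.05. Standard errors were derived from the fold change and F. Fits were tested on simulated data. The ratio is log2 of Tnfsf11 over Tnfrsf11b reads, 0.5 added to each, with exact permutation tests. DESeq2 1.42.0, other scaling, no filter, only the compared libraries, leaving out each library and replicate blocks were the alternatives.

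The gene group, lists and tests were chosen with earlier results of these data known. All 8 genes are named. Of the pathway lists at most the 4 called genes with the smallest adjusted p per list and comparison are named (Ptgs1, Csf1r, Tnfrsf11a and Osmr were named besides, chosen after their values were seen), and the 3 genes most correlated with each of the 8, except a gene that is not reported here.

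Batch numbers paired the cultures. Deviations from group means correlated at r = 0.542 to 0.815 between HBM and WT libraries of the same batch and day, in 12 of 12 pairs above those of other batches (at most 0.127). The labels do not say outright that 1 batch number on several days is 1 culture; it is read so here. Genotype blocks used a batch term for each day, and time blocks a culture term.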

Additional observations from a re-analysis of the deposited data

Results flagged for a closer look

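For Il11, interleukin-11, all 3 same-batch pairs had HBM below WT on day 0, with a mean log2 difference of -0.43, and all 3 had HBM above WT on day 21, with a mean of 0.66. What drew attention was that every pair went one way on the first day and the other way on the last. The share of all genes with such a pattern was not counted. The change of the genotype difference over the 4 days was tested for every gene with edgeR and did not pass for Il11 (adjusted p = 1, edgeR). Il11 had 14 to 95 reads per library, so counting error is large for each of these pairs.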

How the results depend on the processing

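Counts of the 8 genes called differed by over 1.5 times from the main count in 4 cases. Between HBM and WT on day 10 the replicate block gave 1 (Lif) against 0, and between day 10 and day 0 in WT the compared libraries alone gave 2 against 4. Summed over days 10 to 21, the blocked count was 1 against 0, and 2, 0 and 0 without batches 18, 19 and 21. With culture as a block 6 of 8 passed between day 10 and day 0 in WT, against 4, and 4 in HBM, where 38.5% and 38.2% of all genes did. The block changed no other call of the 8 genes.

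Over all genes, calls between HBM and WT on days 0, 10, 15 and 21 were 21, 217, 55 and 40 with the block against 0, and between day 21 and day 10 they were 16 in HBM and 92 in WT against 0. With days 10 to 21 summed they were 419 blocked against 0, and 806, 1 and 0 without batches 18, 19 and 21. DESeq2 called 25 with 4 days summed. Day 10 against day 0 gave 2087 in HBM and 472 in WT in those libraries alone, 2809 without HBM day 0 batch 18 and 2866 without WT day 10 batch 19, against 4404 and 4349. Blocked genotype fits without 1 batch called at most 56 genes on day 0, 43 on day 10, 15 on day 15 and 56 on day 21.

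Directions reversed only for differences that were not called, and the cause was not tested. Lif on day 0 was 0.015 in the compared libraries alone, 0.0026 with DESeq2 and RLE scaling, 0.00075 with no filter, 0.021 with the block and 7.35e-05 with 1 batch term. Blocked, Il11 over 4 days was 0.0043, Tnfrsf11b on day 10 0.040 and Tnfrsf11b between day 21 and day 10 in WT 0.096.

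Leaving out 1 library or batch reversed these log2 values, given as lowest to highest. Between HBM and WT on day 0 they were Lif -0.39 to 0.41, Ptgs2 -0.34 to 0.97, Tnfrsf11b -0.62 to 0.10 and Tnfsf11 -1.07 to 0.46. On day 10 they were Csf1 -0.19 to 0.080, Tnfrsf11b -0.49 to 0.64 and Tnfsf11 -0.66 to 0.042. On day 15 they were Csf1 -0.25 to 0.22, Il11 -0.39 to 0.48, Il6 -0.68 to 0.34, Ptgs2 -0.21 to 0.70, Tnfrsf11b -0.33 to 0.63 and Tnfsf11 -0.97 to 0.19. On day 21 they were Il34 -0.62 to 0.0067 and Il6 -1.70 to 3.15. Summed over 4 days they were Il11 -0.19 to 0.17, Il6 -0.45 to 0.15, Ptgs2 -0.31 to 0.95 and Tnfrsf11b -0.19 to 0.30, and over days 10 to 21 Csf1 -0.043 to 0.047 and Tnfrsf11b -0.065 to 0.44. Between day 21 and day 10 they were, in HBM, Il11 -0.099 to 0.49, Lif -0.31 to 0.30 and Tnfsf11 -0.45 to 0.48, and, in WT, Csf1 -0.22 to 0.14, Il6 -3.49 to 3.95, Lif -0.38 to 0.28, Tnfrsf11b -0.36 to 0.77 and Tnfsf11 -0.035 to 0.68. Tnfsf11 between day 10 and day 0 in WT was -1.15 to 0.058. For the Tnfsf11 to Tnfrsf11b ratio, HBM minus WT was -0.46 to 0.56 on day 0, -1.41 to 0.29 on day 10, -1.71 to 0.34 on day 15 and -1.28 to 0.15 over 4 days, day 10 minus day 0 was -0.27 to 0.46 and day 21 minus day 10 was -0.28 to 0.074.

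Groups of 3 and batches that lie far apart limit every genotype comparison. Il6 is limited by depth, with at most 18 reads in a library. Replicates are pooled cultures, and litters cannot be told apart within a pool.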
